A study of Mus musculus with 6 samples.

Results

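The 8 genes described here encode water channels, connexins and other membrane proteins of the lens: Mip, Aqp1 and Aqp5, Gja1 and Gja3, Lim2, Slc24a2 and Clic5. They were taken by symbol from a written list, were all found among the 27179 genes of the deposited table, and all had enough reads to be tested. RNA came from lenses of mouse pups of strain B6/FVB at postnatal day 1, in 3 libraries labelled Gclc KO (KO 1 to 3) and 3 labelled Gclc CON (CON 1 to 3). Gclc encodes a subunit of glutamate-cysteine ligase, which limits the rate at which cells make glutathione. The title of the series names GSH (glutathione) biosynthesis, eye development and PAX6. The labels give no treatment, sex, litter, Cre driver or deleted exons, and do not give the genotype of CON beyond the name. They do not say how many pups or lenses went into a library, so the spread behind each p-value is that between these samples, which may be technical.

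The lens has no blood supply of its own. Water, ions and small solutes move between its surface epithelium and its inner fibre cells through aquaporins, ion transporters and the gap junctions that connexins build. Mip (also called AQP0) is the main water channel of fibre membranes and also holds fibres together, whereas Aqp1 is the water channel of the lens epithelium. Gja1 is the connexin best known from the epithelium, Gja3 is a fibre connexin, and Lim2 is an abundant fibre membrane protein. Variants of Mip, Lim2 and Gja3 are known causes of inherited cataract.

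Of the 8 genes, 3 fell in KO (Mip, Lim2 and Gja3), 1 rose (Aqp1) and 4 did not pass the test (Aqp5, Clic5, Gja1 and Slc24a2). Calls here are Benjamini-Hochberg adjusted p-values under 0.05 from limma over 11468 genes on the deposited log2 scale. Over all genes tested, 11.3% were called, 6.91% as higher and 4.39% as lower in KO. The KO libraries lay wholly below the CON libraries for 5 of the 8 genes and wholly above for 1, where 31.0% of all genes tested had groups that did not overlap in either direction. The median log2 difference of the 8 genes was -0.76, and that of all genes tested was 0.03. In bulk RNA, fewer cells of a type and less RNA per cell cannot be told apart, which holds for every difference below.

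The 250 bases before the annotated start are printed for 3 genes that fell, 1 that rose and 1 that did not pass, so that the letters stand beside the measurements. They are RefSeq sequences of build GRCm38.p6, read 5′ to 3′ on the strand of the gene. Mip lies at chr10:128225560-128225809 on the plus strand, Lim2 at chr7:43429849-43430098 (plus), the first start of Gja3 at chr14:57058031-57058280 (minus), Aqp1 at chr6:55336049-55336298 (plus) and Gja1 at chr10:56377050-56377299 (plus). Capitals mark matches to 3 motifs searched on both strands.
Mip: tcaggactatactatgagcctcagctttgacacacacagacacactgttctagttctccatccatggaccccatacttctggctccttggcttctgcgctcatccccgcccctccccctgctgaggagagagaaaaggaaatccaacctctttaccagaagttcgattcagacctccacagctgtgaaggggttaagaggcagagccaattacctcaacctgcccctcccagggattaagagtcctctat
Lim2: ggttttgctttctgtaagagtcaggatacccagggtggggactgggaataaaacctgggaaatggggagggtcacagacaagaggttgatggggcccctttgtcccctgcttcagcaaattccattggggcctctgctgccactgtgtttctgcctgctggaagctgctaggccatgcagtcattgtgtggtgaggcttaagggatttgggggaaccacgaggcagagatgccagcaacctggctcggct
Gja3: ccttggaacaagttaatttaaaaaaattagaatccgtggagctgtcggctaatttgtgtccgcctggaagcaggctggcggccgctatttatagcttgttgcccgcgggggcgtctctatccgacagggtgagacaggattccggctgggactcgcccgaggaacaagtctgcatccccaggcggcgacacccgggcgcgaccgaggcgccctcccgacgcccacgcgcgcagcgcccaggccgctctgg
Aqp1: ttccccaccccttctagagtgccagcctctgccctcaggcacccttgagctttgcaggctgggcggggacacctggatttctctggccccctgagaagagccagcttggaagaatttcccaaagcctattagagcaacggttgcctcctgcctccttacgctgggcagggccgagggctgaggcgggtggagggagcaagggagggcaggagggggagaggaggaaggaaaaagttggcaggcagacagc
Gja1: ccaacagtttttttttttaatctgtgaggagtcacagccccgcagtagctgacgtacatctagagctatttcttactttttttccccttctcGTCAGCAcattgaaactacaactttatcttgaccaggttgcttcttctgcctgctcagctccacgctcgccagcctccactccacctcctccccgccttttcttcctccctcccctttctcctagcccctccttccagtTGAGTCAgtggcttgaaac
The motifs were TGCTGAC, the core of the element bound by MAF proteins, GAANNTTC, a unit of the heat shock element, and TGANTCA, the AP-1 element. The first can overlap the third. Of 32851 promoters in the table, counted with 50 bases after the start, 4.67%, 7.86% and 7.81% held them. Gja1 holds the first on its reverse strand, from 158 bases before the start, and the third from 19 bases before it. None of the 3 motifs is in the windows of Mip, Lim2, Gja3, Aqp1, Aqp5 or Slc24a2, and Clic5 holds GAACATTC before its start. The printed window of Gja3 has 62.8% G and C with 26 CG pairs, against 52.0% with 3 pairs in Mip and 55.6% with 2 pairs in Lim2.

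Values below are normalised reads, the reads of a gene divided by the size factor of its library, and 3 values given together are those of libraries 1, 2 and 3 of the group. Libraries held from 20361430 (CON 2) to 61219009 (KO 3) reads in genes, and the 16 crystallin genes took 59.5% to 68.4% of them in CON and 40.5% to 47.5% in KO. Gclc itself stood at 178, 283 and 173 normalised reads in CON and at 17.9, 72.1 and 58.1 in KO, a log2 difference of -1.01 (SE 0.28, limma adjusted p 0.0387). The deposited scale shrinks differences of genes with few reads. For Gclc the mean was 4.28-fold lower in KO, and on log2 of normalised reads plus 1 the difference was -2.25 (limma adjusted p 0.0709). Its KO libraries were all below CON, and some reads remained in each. The call of Gclc held when CON 1 or CON 3 was left out and not when any of the other libraries was (adjusted p up to 0.130), and it held in 4 of 11 other settings.

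Marker lists of the cells that a dissected lens can hold were read as summed normalised reads, and the 2 lens lists come first. Of 12 lens fibre markers 10 fell in KO and none rose, and none was at 0. The count that fell was 5 or 6 when any library but CON 1 was left out, 5 without a filter or under the library total, and 6, with 1 (Crygs) higher, under quantile normalisation. Their sum ranged from 8362748 to 13854923 in CON and from 3293113 to 5213031 in KO, lower in the same libraries as Mip, Lim2 and Gja3. Cryba1, Cryba4, Crygd and Crygs of that list are crystallin genes, so its sum is not independent of the crystallin share given above. The fibre list also shares Bfsp1 and Bfsp2 with the binding partners listed below. Of 7 tested lens epithelium markers 2 rose and 3 fell, with a median log2 difference of -0.43, so that list did not move in 1 direction. Its sum was 12267 to 16186 in CON and 18265 to 19863 in KO. Of that sum Pax6 gave 5379, 4884 and 7325 in CON and 11994, 10811 and 10450 in KO. The part of a shift in cell makeup in the results below was not tested.

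Among the water channels, Mip fell and Aqp1 rose. Mip was at 222688, 192854 and 182282 normalised reads in CON and at 64239.5, 49253 and 59712 in KO. The highest KO library was far below the lowest CON library. The means were 199275 ± 20954 (SD, n = 3) in CON and 57735 ± 7687 (SD, n = 3) in KO, 3.45-fold lower in KO. On the log2 scale the difference was -1.79 (SE 0.22, 95% interval -2.27 to -1.31, limma adjusted p 0.000656). Mip kept its call when any library was left out (adjusted p 0.0012 to 0.00577) and under each of 12 other settings (up to 0.0348). An antisense gene, Gm26847, shares 56.5% of the 30-base words of the Mip transcript, and whether counting used strand is not given in the sources used here, so reads of Mip and of that gene cannot be told apart.

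Aqp1 stood at 974, 648 and 1444 normalised reads in CON and at 2273, 2239 and 1877 in KO. Every KO library was above every CON library, and CON 3 came nearest to KO. The mean was 1022 ± 400.0 (SD, n = 3) in CON and 2129.6 ± 219.5 (SD, n = 3) in KO, 2.08-fold higher. The log2 difference was 1.00 (SE 0.26, 95% interval 0.43 to 1.57, limma adjusted p 0.0312). This call was lost when CON 2, KO 1, KO 2 or KO 3 was left out, with adjusted p-values of 0.0979, 0.0950, 0.127 and 0.0662. It was also lost without a filter on low values (0.0517) and under equal library medians (0.0518).

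Aqp5, a water channel known from secretory glands, cornea and lens, was counted from few reads. It had 153, 195 and 105 normalised reads in CON and 48.4, 57.7 and 29.6 in KO, from 145, 62 and 71 reads and from 84, 96 and 56 reads. All KO values were below all CON values, with means of 151 ± 45.2 (SD, n = 3) and 45.2 ± 14.3 (SD, n = 3), 3.34-fold lower in KO. The log2 difference of -0.75 (SE 0.26, 95% interval -1.32 to -0.17) did not pass (limma p 0.0151, adjusted p 0.0922). The deposited scale shrinks differences of genes with few reads, and on log2 of normalised reads plus 1 the difference was -1.72, also not called (adjusted p 0.125).

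**Figure D1:**
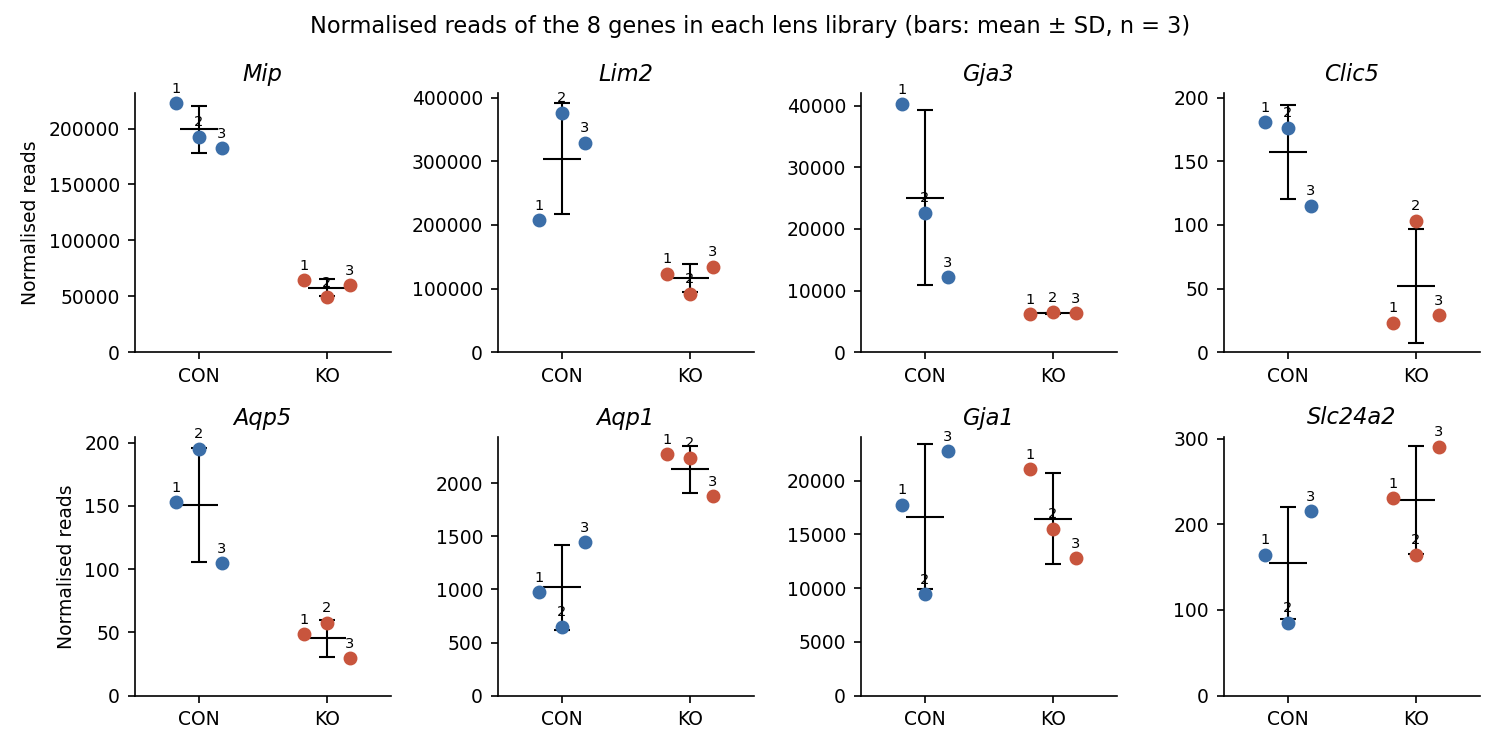
Normalised reads of the 8 genes (vertical axes from 0, 1 panel per gene) in libraries 1 to 3 of CON and of KO, with points for libraries and bars for mean ± SD (n = 3 per group). The KO points of Mip, Lim2, Gja3, Clic5 and Aqp5 lie below all CON points, those of Aqp1 above, and those of Gja1 and Slc24a2 overlap with CON.

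The connexins split in the same comparison: Gja3 fell and Gja1 did not pass. Gja3 was at 40261, 22631 and 12195 normalised reads in CON and at 6202, 6441 and 6285 in KO. The CON libraries spread widely, with a coefficient of variation of 56.7%, and the KO libraries were close together, with 1.92%. The mean was 25029 ± 14186 (SD, n = 3) in CON and 6309 ± 121 (SD, n = 3) in KO, 3.97-fold lower. The log2 difference was -1.80 (SE 0.34, 95% interval -2.54 to -1.05, limma adjusted p 0.00688). It was -1.37 without CON 1 and -2.23 without CON 3, and passed with any library left out (adjusted p up to 0.0343).

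Gja1 was at 17777, 9429 and 22737 normalised reads in CON and at 21074, 15536 and 12799 in KO. The groups overlapped, and CON 2 was the lowest and CON 3 the highest of the 6. Means of 16647 ± 6725 (SD, n = 3) and 16469.7 ± 4216 (SD, n = 3) gave a log2 difference of 0.04 (SE 0.31, limma adjusted p 0.948). Its 95% interval, -0.63 to 0.72, leaves room for a change in either direction.

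Lim2, a tetraspan protein of fibre membranes, was the most abundant of the 8 per length of transcript. It was at 207302, 376488 and 329580.2 normalised reads in CON and at 123336, 91943 and 134302 in KO. The groups did not overlap, and CON 1 was the CON library nearest to KO. The mean fell from 304457 ± 87346 (SD, n = 3) to 116527 ± 21985 (SD, n = 3), 2.61-fold lower, with a log2 difference of -1.36 (SE 0.28, 95% interval -1.98 to -0.74, limma adjusted p 0.0105). Without CON 2 the adjusted p was 0.0542. Quantile normalisation, which gives every library the same distribution of values, left -0.16 (adjusted p 0.468).

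Clic5, a chloride intracellular channel protein known from actin-rich cell surfaces, had 180.5, 176.2 and 115 normalised reads in CON and 23.04, 103 and 29.1 in KO. KO 2 stood apart from the other KO libraries and close to CON 3. Exact Poisson 95% intervals, which cover counting error only, were 88.5 to 120 normalised reads for KO 2 and 90.9 to 144 for CON 3. The means were 157 ± 36.6 (SD, n = 3) in CON and 51.8 ± 44.8 (SD, n = 3) in KO. The log2 difference was -0.77 (SE 0.29, 95% interval -1.40 to -0.14), and it did not pass (limma p 0.0205, adjusted p 0.111). The deposited scale shrinks this difference too. The mean was 3.03-fold lower in KO, and on log2 of normalised reads plus 1 the difference was -1.88, also not called (limma adjusted p 0.146).

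Slc24a2 encodes an exchanger that moves calcium, together with potassium, out of cells in exchange for sodium. It had 164.7, 85.0 and 215 normalised reads in CON and 230.4, 164.7 and 291 in KO. The groups overlapped, with CON 2, at 27 reads, the lowest. The means were 155 ± 65.7 (SD, n = 3) in CON and 229 ± 63.0 (SD, n = 3) in KO. The log2 difference was 0.35 (SE 0.28, 95% interval -0.27 to 0.96, limma adjusted p 0.479).

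**Figure D2:**
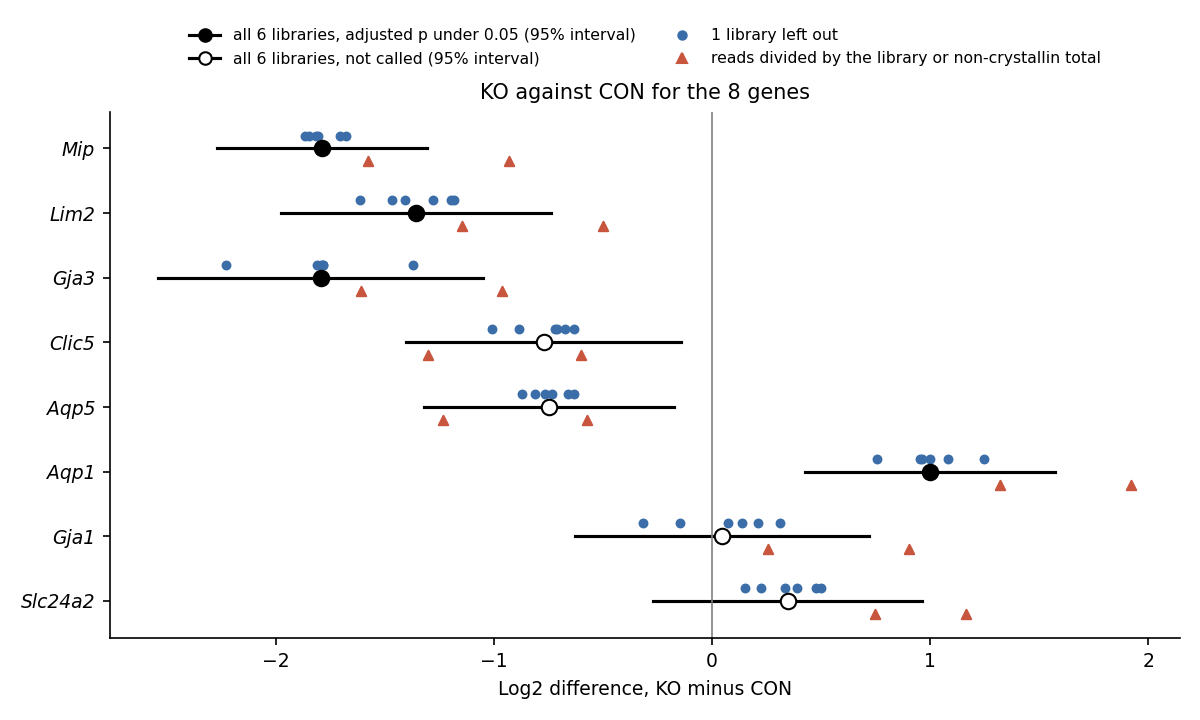
Log2 difference, KO minus CON (horizontal axis), for each of the 8 genes, with all 6 libraries (large circles, filled where the adjusted p is under 0.05, lines for 95% intervals), with 1 library left out (small circles) and after scaling to the library or non-crystallin total (triangles). Mip, Lim2 and Gja3 stay below 0 in all of these fits and Aqp1 above 0, whereas the circles of Gja1 lie on both sides of 0.

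How libraries are scaled moved the sizes of these differences. Dividing reads by the library total, of which crystallins are a smaller share in KO, raised the median of all genes tested to 0.79. On that scale the log2 difference was -0.93 for Mip (limma adjusted p 0.0077), -0.50 for Lim2 (0.0258), -0.96 for Gja3 (0.108), 1.92 for Aqp1 (0.0036) and 0.90 for Gja1 (0.0658). Slc24a2 was called higher there (1.16, limma adjusted p 0.0457), as were 38.4% of all genes tested. Relative to the shifted median these were -1.72 for Mip, -1.29 for Lim2, -1.75 for Gja3, 1.14 for Aqp1, 0.11 for Gja1 and 0.38 for Slc24a2. The signs of Mip, Lim2, Gja3 and Aqp1 held under both totals and under equal library medians. Gja1 was at -0.08 under equal library medians. In a fit with a term for the style of library name that KO 2 and KO 3 share, Mip alone of the 8 genes passed (limma adjusted p 0.0348).

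Ratios of the reads of 2 genes within a library do not depend on that scaling. The log2 differences and tests of ratios were taken on the deposited scale unless another is named. That scale shrinks differences of genes with few reads, so they are not fully free of scaling. There were 229, 297 and 126 reads of Mip for each read of Aqp1 in CON and 28.3, 21.99 and 31.8 in KO. The KO ratios were all below the CON ratios, with a log2 difference of -2.79 on the deposited scale. For Gja3 over Gja1 the ratios were 2.26, 2.40 and 0.536 in CON and 0.294, 0.415 and 0.491 in KO, a log2 difference of -1.84. CON 3 was just above the highest KO library, and it was the only CON library with fewer reads of Gja3 than of Gja1. Aqp5 over Aqp1 was 0.157, 0.301 and 0.0725 in CON and 0.0213, 0.0258 and 0.0158 in KO, again without overlap. The log2 difference was -1.75 on the deposited scale and -2.85 on log2 of normalised reads plus 1. Each of these ratios reached p 0.1 in the exact two-sided permutation test, the smallest that 3 libraries against 3 allow, and 0.15 after adjustment over the 6 ratios tested.

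Ratios of reads among the genes with lower KO values overlapped between groups. Mip over Lim2 was 1.07 in CON 1, 0.512 and 0.553 in CON 2 and 3, and 0.521, 0.536 and 0.445 in KO (log2 difference -0.43, exact permutation p 0.3, adjusted 0.36). CON 1 alone was above 1, and the other 5 libraries lay close together. Mip over Gja3 was 5.53, 8.52 and 14.9 in CON and 10.4, 7.65 and 9.50 in KO (0.01, exact permutation p 1.0). Mip over Aqp5 was 1455, 988 and 1741 in CON and 1328, 853 and 2017 in KO. On the deposited scale its log2 difference was -1.04 with groups that did not overlap (exact permutation p 0.1), but on log2 of normalised reads plus 1 it was -0.07 with groups that did (p 0.9).

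**Figure D3:**
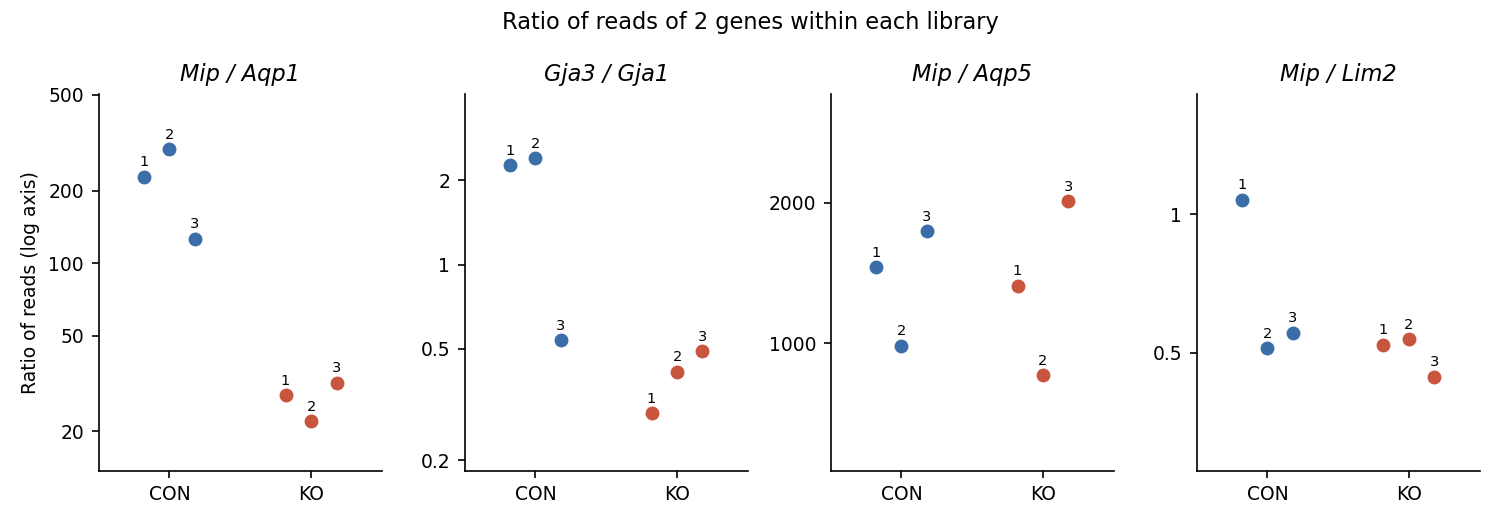
Ratio of reads of 2 genes within each library (vertical log axes) for Mip over Aqp1, Gja3 over Gja1, Mip over Aqp5 and Mip over Lim2, in libraries 1 to 3 of CON and of KO. Mip over Aqp1 lies between 126 and 297 in CON and between 21.99 and 31.8 in KO, and Mip over Lim2 is near 0.5 in all libraries but CON 1, at 1.07.

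Levels of different genes were compared as normalised reads per kilobase of transcript. In CON the order was Lim2 (344408 ± 98808), Mip (92945 ± 9773), Gja3 (9049 ± 5129), Gja1 (5325 ± 2151), Aqp1 (389 ± 152.3), Aqp5 (108 ± 32.4), Clic5 (26.8 ± 6.25) and Slc24a2 (24.4 ± 10.3), each as mean ± SD with n = 3. Neighbours overlapped for Gja3 and Gja1 and for Clic5 and Slc24a2. In KO, Lim2 (131818 ± 24869.9) and Mip (26929 ± 3585) still led. Gja1 (5268 ± 1348) then stood above Gja3 (2281 ± 43.8) in every KO library, followed by Aqp1 (811 ± 83.6). The last 3, Slc24a2 (36.0 ± 9.91), Aqp5 (32.4 ± 10.3) and Clic5 (8.84 ± 7.64), had the lowest levels, and Slc24a2 and Aqp5 overlapped.

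Among the aquaporins of a library, Mip made up 99.1% ± 0.231 (SD, n = 3) of the summed level per kilobase in CON and 94.4% ± 0.718 (SD, n = 3) in KO. Aqp1 made up 0.422% ± 0.193 and 2.88% ± 0.538 of it. Among the connexins, Gje1, a connexin-like gene expressed in lens fibres, held the largest share, 75.0% ± 9.99 in CON and 83.0% ± 3.54 in KO (SD, n = 3). The share of Gja3 was 22.1%, 13.3% and 5.22% in CON and 3.84%, 5.53% and 3.96% in KO, so CON 3 lay within the KO range. That of Gja1 was 8.64%, 4.88% and 8.61% in CON and 11.5%, 11.8% and 7.13% in KO, with overlap. These shares were described and not tested.

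**Figure D4:**
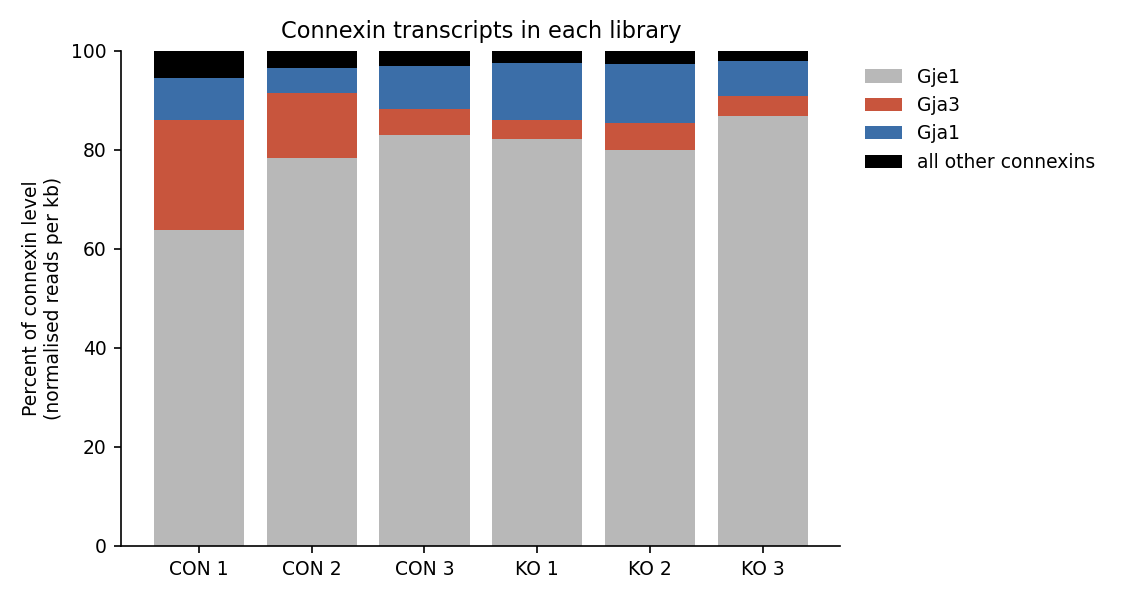
Percent of the connexin level (normalised reads per kilobase, vertical axis from 0) held by Gje1, Gja3, Gja1 and all other connexins together in each of the 6 libraries. Gja3 holds 22.1% in CON 1 and 13.3% in CON 2, and between 3.84% and 5.53% in CON 3 and the KO libraries.

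The relatives of the 8 genes were read from lists of whole families. Of 12 aquaporins, 7 were tested, 3 rose (Aqp1, Aqp3 and Aqp8), 1 fell (Mip) and 3 did not pass, with a median log2 difference of 0.46. Aqp3, a glycerol and water channel of surface epithelia, had 9.50, 6.29 and 2.95 normalised reads in CON and 227, 162 and 130.0 in KO (log2 difference 1.48, SE 0.26, limma adjusted p 0.00462). It was thus barely detected in CON, and its call held with any library left out and was lost with voom on the recovered reads (adjusted p 0.121). The deposited scale shrinks differences of genes with few reads, so 1.48 is smaller than the change in normalised reads of Aqp3. Aqp8 had 10.6, 192 and 106 in CON and 265, 377 and 726 in KO (1.40, SE 0.39, limma adjusted p 0.0418), and that call was lost in 4 of the 6 fits with a library left out, those without CON 1, CON 3, KO 2 and KO 3 (largest adjusted p 0.162).

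Of 23 connexins and pannexins, 6 were tested, none rose, 3 fell, among them Gja3 and Gja4, and 3 did not pass (Gja1, Gjc1 and Gje1), with a median of -0.76. With reads divided by the library total, 2 rose (Gjc1 and Gje1) and none fell. On that scale 38.4% of all genes tested were called higher and 0.785% lower. With the term for library names none passed in either direction. Gja4, a connexin of vessel walls, had 158, 450.0 and 268 normalised reads in CON and 104, 50.5 and 13.7 in KO (-1.24, SE 0.33, limma adjusted p 0.0346). Its call needed CON 2, CON 3, KO 2 and KO 3 (largest adjusted p 0.151 without one of them).

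The family of Lim2, with Pmp22 and the epithelial membrane proteins, held genes that moved in both directions. Of 8 genes 6 were tested, 3 rose (Emp1, Emp2 and Emp3), Lim2 fell and 2 did not pass, with a median of 0.56. Emp1 went from 186, 6.29 and 192 normalised reads in CON to 5501, 2651 and 3345 in KO (3.99, SE 0.41, limma adjusted p 0.000227). Emp3 went from 170.0, 324 and 339 to 1204, 1210.1 and 1297 (1.71, SE 0.25, limma adjusted p 0.00168). Both passed with any library left out. Emp2 had 109, 0 and 0 in CON and 91.6, 278 and 219.9 in KO. Its groups overlapped, and the call (limma adjusted p 0.0490) held only when CON 1 was left out.

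Of 9 sodium calcium exchangers 4 were tested. Slc24a4, an exchanger of the same type as Slc24a2, fell from 1457, 1293 and 759.6 normalised reads in CON to 365, 375 and 606 in KO (-1.11, SE 0.28, limma adjusted p 0.0257). Slc8a1, a sodium calcium exchanger that does not use potassium, rose from 249, 176.2 and 206 to 589.7, 489 and 489 (0.91, SE 0.24, limma adjusted p 0.0328). The call of Slc24a4 ended when CON 2, KO 1 or KO 2 was left out (largest adjusted p 0.115), and leaving out any library but CON 1 ended that of Slc8a1 (up to 0.128). Of 5 chloride intracellular channel genes 3 were tested and none passed.

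Of 14 symbols listed as binding partners of AQP0 and connexins, 12 were matched and tested, 4 fell (Bfsp1, Bfsp2, Calm3 and Prx), 1 rose (Msn) and 7 did not pass, with a median of -0.44. Bfsp1 and Bfsp2 build the beaded filaments of fibre cells, and Bfsp1 binds AQP0. Bfsp1 fell from 27939 ± 7814 to 9039 ± 3013 normalised reads (SD, n = 3; -1.62, SE 0.28, limma adjusted p 0.00473), and Bfsp2 from 359063 ± 73344 to 169056 ± 34085 (SD, n = 3; -1.09, SE 0.27, limma adjusted p 0.0250). Prx, periaxin, a scaffold protein of fibre membranes, had 1332, 793 and 615 in CON and 62.8, 203 and 328 in KO (-1.66, SE 0.35, limma adjusted p 0.0118). Msn, moesin, which ties membrane proteins to actin, had 2599, 1089 and 1457 in CON and 4707, 6482 and 5727 in KO (1.69, SE 0.28, limma adjusted p 0.00348). Bfsp1, Prx and Msn passed with any library left out. Bfsp2 passed only without CON 1 (adjusted p up to 0.118), and Calm3, a calmodulin gene (-0.80, limma adjusted p 0.0470), only without CON 3 (up to 0.153).

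**Figure D5:**
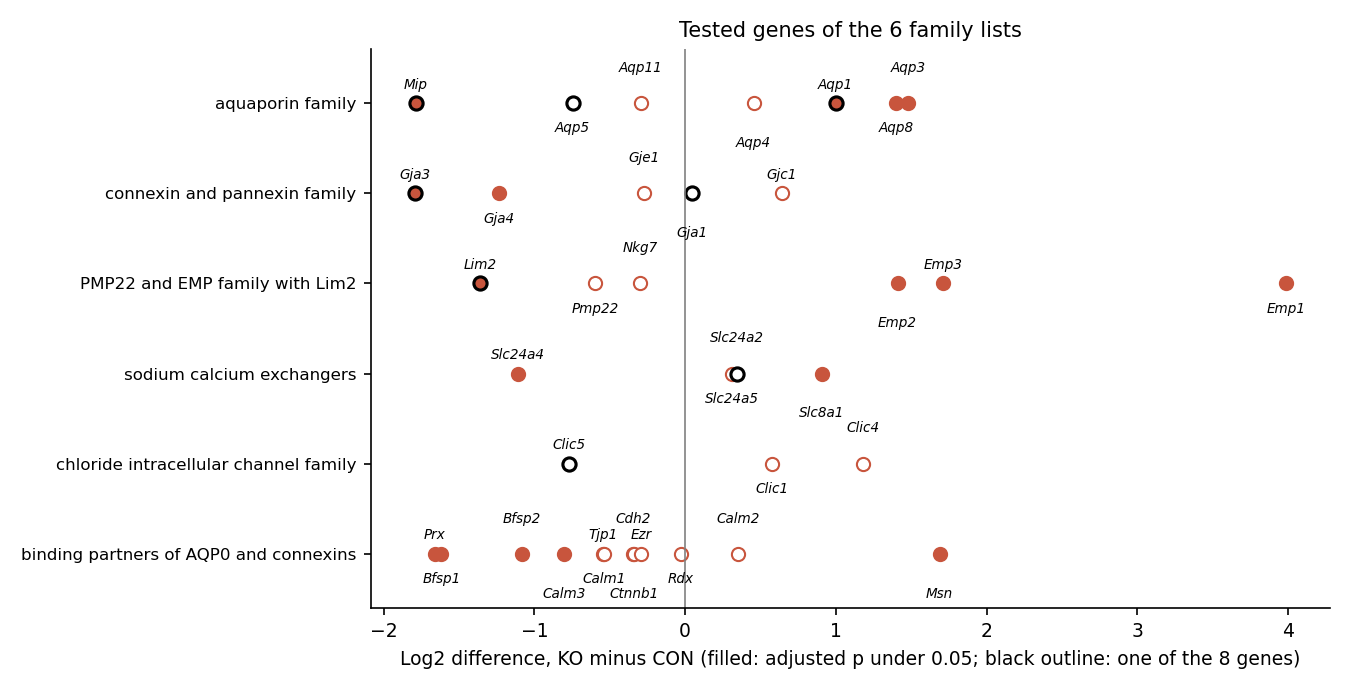
Log2 difference, KO minus CON (horizontal axis), of tested genes of the 6 family lists (rows), filled where the limma adjusted p is under 0.05, with the 8 genes outlined in black. Mip, Gja3 and Lim2 have the lowest value of their lists at -1.79, -1.80 and -1.36, and Emp1 the highest of all at 3.99. Differences are on the deposited scale, which shrinks those of genes with few reads.

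Markers of other cells moved with Aqp1, Aqp3, Emp1, Emp3 and Msn. Of 12 macrophage markers 9 rose (1608 to 2643 in CON, 6079 to 19021 in KO). The corneal and surface epithelium list, 2 of 8 tested and both higher, ranged from 1743 to 2142 in CON and from 5112 to 9639.7 in KO. Its defining Krt12, Krt14 and Trp63 had no reads in CON, and each had reads in 1 KO library. Of 7 tested ciliary markers 2 rose (6401 to 9747 in CON, 15013 to 15616 in KO). Of 5 tested pigment cell markers 1 rose (8110.1 to 10186 in CON, 11243 to 18028 in KO), with Rpe65 at 0 throughout. Of 5 tested retinal markers 1 rose (1215 to 1462 in CON, 2441 to 3795 in KO). With a library left out, the count that rose ranged from 1 to 2 in the ciliary list and from 0 to 2 in the pigment cell list. Under the library total it was 6 and 5, on a scale where 38.4% of all genes tested were called higher. The part of these cells in the higher values was not tested. Red cells also carry Aqp1. Of 4 tested red cell markers 1 fell (Hba-a2) and 3 did not pass, and the sum of the 6 matched ones was 4414 to 6826 in CON and 2254 to 3631 in KO. Of 9 endothelial markers none passed (3435 to 4091 in CON, 1717 to 4727 in KO), and of 2 tested mesenchyme markers 1 fell (748 to 1366 in CON, 419.6 to 451 in KO, with Kera at 0 throughout).

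Genes with the most similar pattern were taken as those whose centred log2 values over the 6 libraries lay nearest, by root mean square distance. For Mip the nearest were Klhl5 (0.112) and Igsf9 (0.127). For Lim2 they were Crybb3 (0.0766), Crygf (0.0897) and Cryba4 (0.101), which are crystallin genes, and Pcp4 (0.104). For Aqp1 they were Kctd14 (0.0671), Spcs3 (0.0841), Pear1 (0.0980) and Lysmd3 (0.117). These distances describe 6 libraries and carry no test.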

How the data were processed

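The authors deposited log2 values of 27179 Entrez genes in 6 libraries. A gene with 0 reads sits at 6.504, the floor of their variance-stabilising transformation. Per the labels' protocols, RNA was extracted with RNeasy Micro and a NEBNext kit for low input made the libraries. Per the submitters' processing notes, Trimmomatic, HISAT2 2.1.0, mm9, featureCounts 1.6.4 and DESeq2 (given as 2.11.0.6) were used. Strand and the counting of read pairs are not given in the sources used here.

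The transformation was inverted to reads: 100% of values came within 0.1 of a whole number, and the size factors (CON 1 to 3: 0.947, 0.318 and 0.678; KO 1 to 3: 1.74, 1.66 and 1.89) equal median-of-ratios factors. KO was compared with CON by limma 3.58.1 in R 4.3.3 (lmFit, eBayes with trend) on the deposited log2 values of the 11468 genes whose mean exceeded the floor by 1 unit or more, with Benjamini-Hochberg adjustment over all of them. Sequencing depth was 20361430 to 61219009 reads in genes. Reads carry no molecular identifiers, so intervals cover counting error only. In simulated libraries, 15% of genes shifted by 1 log2 unit and 97% of genes shifted by 2 were called, and 8 of 120 calls were false.

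Symbols (25275 matched, 1904 not) and transcript lengths (median of basic protein-coding transcripts) came from GRCm38 annotation, whose coordinates were not joined to the mm9 counts. Members and lists were chosen with earlier results of these data known. Named are the 8 genes, Gclc, all called genes of a family list (none had more than 5), and the 4 nearest genes of Mip, Lim2 and Aqp1, except that some genes are not reported here. Also named outside that rule are Gje1, Gjc1, Pmp22, Aqp4, Pax6, Cryba1, Crygd, Crygs, Hba-a2, Krt12, Krt14 and Trp63. So are the marker genes at 0 and the genes that overlap Mip or Gje1. Gje1 and the marker genes at 0 were named after their values were seen. Alternatives were other filters, scalings and variance models, voom, a replicate block, a term for how libraries were named, and each library left out. Residuals of equally numbered libraries correlated at -0.364, -0.128 and -0.140, and the numbers were not treated as pairs. Residuals cancel within a group, which forces some negative correlations, so these values cannot decide whether the numbers mark pairs.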

Additional observations from a re-analysis of the deposited data

How the results depend on the processing

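Over all genes, 793 (6.91% of those tested) were called higher and 504 (4.39%) lower. Without a filter 1.87% were lower, and with a filter of 3 log2 units 340 genes were higher and 9.22% lower. Voom gave 3.67% higher, library weights 10.6% higher and 8.14% lower, the library total 38.4% higher and 0.785% lower, and the non-crystallin total 2.80% lower. The share of higher among all calls was 61.1%, and 71.3% without a filter, 42.4% with the filter of 3 units, 47.3% under equal medians, 98.0% and 76.4% under the 2 totals, 47.1% with voom and 84.0% with the covariate below. The median of all genes was 0.25 under the non-crystallin total. Leaving out 1 library gave 3.11% (without KO 2) to 9.46% (without CON 1) higher and 1.53% (without KO 2) to 7.48% (without CON 1) lower calls, and the counts also moved by over 1.5 times without CON 2, KO 1 or KO 3.

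Of the 8 genes, 1 was called higher and 3 lower. The higher count was 0 without a filter and under equal medians (Aqp1 adjusted p 0.0517 and 0.0518) and 2 under the library total. With 1 library left out it was 0 to 1, and the lower count 2 to 3. Aqp5 and Clic5 were called only under quantile normalisation (-1.03, adjusted p 0.0269, and -1.09, 0.0323). Gja1 turned to -0.080 under equal medians and -0.022 with library weights, and ranged from -0.32 to 0.31 with 1 library left out. Mip over Gja3 ranged from -0.332 to 0.377 with 1 library left out.

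The family lists held 8 distinct genes called higher and 10 lower. No filter and the filter of 3 units gave 5 higher each, the library total 16 higher and 3 lower, and voom 4 higher. Leaving out 1 library gave 4 to 8 higher and 5 to 10 lower. Calm3 turned to 0.030 under the library total. On that scale the exchangers gave 2 higher and 0 lower, and the binding partners 3 higher and 1 lower, where 38.4% of all genes tested were called higher. Counts of marker lists moved too: the fibre count of 10 lower was 1 with the covariate below and 12 with library weights, the macrophage count of 9 higher was 4 to 11 over all settings, and the red cell count of 1 lower was 0 to 3.

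The name of CON 2 ends in a suffix that no other library has, and the labels do not explain that suffix. CON 2 also had the fewest reads. Without it, Aqp1 and Lim2 lost their calls (limma adjusted p 0.0979 and 0.0542). KO 2 and KO 3 share a style of library name that the other libraries do not have, and the labels do not say what that style stands for. With a covariate for it, which rests the contrast on KO 1 against CON, 1.78% of genes were higher and 0.340% lower, the 8 genes 0 and 1, and the family lists 3 and 2. Mip kept its call (-1.63, adjusted p 0.0348), and Gja3 (-1.82, 0.111), Lim2 (-1.26, 0.192) and Aqp1 (0.214) did not.

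Whether the replicate numbers pair the libraries is not given in the labels. A fit with the replicate block called 5.28% of genes higher and 2.69% lower, 0 and 3 of the 8 genes (Aqp1 adjusted p 0.0597) and 5 family genes higher. No library correlated best with its own number. Counting error is widest for Aqp5, Clic5 and Slc24a2, with as few as 56, 40 and 27 reads in a library. Clic5 in KO 1 (16.5 to 31.4) and KO 2 (88.5 to 120) differed beyond their counting intervals.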

Other observations

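Gje1, which held the largest share of the connexin level, had 62145, 71534 and 103719 normalised reads in CON and 70939, 49809 and 73791 in KO, with a log2 difference of -0.27 (SE 0.26, limma adjusted p 0.551). The groups overlapped, while those of Gja3 did not. The gene overlaps 1700016L04Rik, which had from 0 to 7 reads per library. Pmp22, a gene of the same family list as Lim2, went from 25882 ± 4475 to 17265 ± 4707 normalised reads (SD, n = 3; -0.60, limma adjusted p 0.127). Aqp4, a water channel of glia and epithelia, went from 203 ± 51.0 to 328 ± 40.7 (SD, n = 3; 0.46, limma adjusted p 0.283). These genes were chosen after their values were seen.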
